A study of Mus musculus with 2 samples.

Results

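The myeloid C-type lectin receptor genes described here were the mannose receptor gene Mrc1, the galactose-type lectin genes Mgl2 and Clec10a, the DC-SIGN-like gene Cd209a, the Clec4 group Clec4d, Clec4e and Clec4n, and Clec7a, Clec9a and Clec12a. They were chosen by symbol, and 9 of the 10 had a row among the 32285 genes of the count matrices. Clec7a had none and was not analysed here. The cells were sorted for CD45, a surface protein of immune cells, from 143B tumors. 143B is an established osteosarcoma line of human origin, and the tumors grew in female nude mice, which lack T cells and keep myeloid, NK and B cells. The mice were 4 weeks old at tumor injection. The control library came from mice given control IgG, a human IgG1, and the other from mice given anti-CD3L1, a humanized IgG1 antibody. Both antibodies were dosed at 10 mg/kg every 3 days for 4 doses, and each library pooled cells of 3 tumors, so there was 1 library per group. The question was in which cell classes each receptor gene was read and how its level differed between the 2 libraries.

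C-type lectin receptors are membrane proteins through which phagocytes and dendritic cells sense sugars, lipids and contents of dying cells. Clec4e (Mincle), Clec4d and Clec4n (Dectin-2) signal through the Fc receptor gamma chain, encoded by Fcer1g, and the kinase Syk, while Clec12a carries an inhibitory motif and recruits phosphatases. Mrc1 (the mannose receptor), Mgl2 and Clec10a (macrophage galactose lectins) and Cd209a take up glycosylated cargo, and Clec9a lets cross-presenting dendritic cells sense actin of dead cells. In tumors Mrc1 is often read as a marker of tissue-resident or alternatively activated macrophages.

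In the GENCODE M21 annotation of GRCm38, 6 of the 10 genes lay on chromosome 6. Clec4n (chr6:123229843-123247021, plus strand), Clec4d (chr6:123262111-123275265, plus strand) and Clec4e (chr6:123281789-123289870, minus strand) were neighbours, with 15.1 kb between Clec4n and Clec4d and 6.5 kb between Clec4d and Clec4e. Clec12a (chr6:129342691-129365303), Clec9a (chr6:129408862-129424763) and Clec7a (chr6:129461591-129472779) formed another group. Mgl2 (chr11:70130329-70137550) and Clec10a (chr11:70156197-70170834) were separated by 18.6 kb, Mrc1 lay at chr2:14229392-14332057 and Cd209a at chr8:3743397-3748984. The submitters' notes name GRCm39, and the files hold no coordinates, so the positions were matched by Ensembl identifier. If the reads came from 3′ ends, which is assumed here because the labels do not give the end read, those of Mgl2 and Clec10a could be hard to assign, since 14.4% and 13.9% of the 50-base words in the last 1000 bases of their transcripts also occurred in other genes, each other among them. Under the same assumption the share was 0% for Mrc1, Cd209a, Clec4d and Clec4e.

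The 250 bases before the RefSeq gene start (GRCm38.p6, read 5′ to 3′ on the gene's strand) are shown for the neighbouring pair Clec4d and Clec4e, whose levels followed each other across cell classes and for the uptake receptor genes Mrc1 and Mgl2 (the 4 were chosen after their values were seen). Capitals mark matches, on either strand, to GAGGAA (PU.1 or ETS), TTGCNNAA (C/EBP) and TGANTCA (AP-1).
Clec4d, chr6:123261857-123262106, plus strand: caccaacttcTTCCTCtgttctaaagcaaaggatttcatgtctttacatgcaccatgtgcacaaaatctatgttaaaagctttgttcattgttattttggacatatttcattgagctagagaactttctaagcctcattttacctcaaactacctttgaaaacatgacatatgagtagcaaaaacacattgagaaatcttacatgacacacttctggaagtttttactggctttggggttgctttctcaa
Clec4e, chr6:123289872-123290121, minus strand: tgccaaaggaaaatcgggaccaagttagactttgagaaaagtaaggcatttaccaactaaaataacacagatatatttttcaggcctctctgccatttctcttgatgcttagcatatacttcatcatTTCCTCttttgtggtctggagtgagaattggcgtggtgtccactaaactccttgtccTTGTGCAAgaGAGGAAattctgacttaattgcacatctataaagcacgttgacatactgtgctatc
Mrc1, chr2:14229164-14229413, plus strand: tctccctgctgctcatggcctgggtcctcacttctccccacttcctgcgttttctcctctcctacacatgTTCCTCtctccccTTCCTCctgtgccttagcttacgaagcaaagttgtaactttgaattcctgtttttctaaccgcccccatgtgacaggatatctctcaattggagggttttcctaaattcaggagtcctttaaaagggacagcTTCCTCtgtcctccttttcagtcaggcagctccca
Mgl2, chr11:70130107-70130356, plus strand: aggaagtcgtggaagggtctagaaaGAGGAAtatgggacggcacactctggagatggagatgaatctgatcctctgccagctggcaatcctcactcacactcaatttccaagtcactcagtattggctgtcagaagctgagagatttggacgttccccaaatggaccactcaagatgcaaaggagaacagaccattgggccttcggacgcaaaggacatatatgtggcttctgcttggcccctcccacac
GAGGAA occurred in 5 of the 7 measured members with a window (Mrc1, Mgl2, Clec4d, Clec4e and Clec12a) and in 23.3% of all 32851 windows. TTGCNNAA occurred in Clec4e and Clec12a and in 9.56% of windows, and TGANTCA in Clec12a alone of the 7 and in 6.75% of windows. Clec4d held 1 match and Clec4e 3. A match is a run of letters and not a measured binding site.

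The control IgG library held 8557 cells with a median of 5526 unique molecular identifiers (UMIs, counted RNA molecules) and the anti-CD3L1 library 11269 cells with a median of 8267. Cells were put into classes by markers that include none of the receptor genes, and 26 cell barcodes occurred in both libraries. Neutrophil-like cells made up 64.7% of control IgG cells (5539 cells, median 4549 UMIs) and 4.75% of anti-CD3L1 cells (535 cells, median 2212 UMIs). The anti-CD3L1 library held more C1q macrophage-like (506 and 2940), C1q-low macrophage-like (303 and 1274), monocyte-like (1169 and 2481), cDC1-like (37 and 339), cDC2-like (63 and 686) and NK-like cells (155 and 833), where cDC1 and cDC2 are the conventional dendritic cell types. All shares depend on the CD45 bead sort. Both conventional dendritic classes also held RNA of other markers: the 6 C1q macrophage markers summed to 2813 and 2850 CPM and the 6 monocyte markers to 2237 and 1025 CPM in cDC1-like cells, above or near the 955 and 1126 CPM of their own 6. In cDC2-like cells the monocyte markers summed to 1820 and 1690 CPM and their own 6 to 978 and 1023 CPM. The part of this RNA in the dendritic values was not tested. Among the genes that led each class, gate markers aside, were S100a8 and S100a9 in neutrophil-like, Apoe and Ccl8 in C1q macrophage-like and Gzmb and Nkg7 in NK-like cells. The monocyte-like cells of anti-CD3L1 were also led by Cd177 and Camp, the cDC1-like cells of control IgG by the interferon genes Ifit2 and Ifit3, and the cDC2-like cells of both libraries by Cd209a and Clec10a. Levels are CPM, a gene's UMIs summed over a class and scaled to the same total UMIs in every class, with 95% exact intervals that cover counting error only. With 1 library per group no difference between the libraries has a replicate check, and none was tested.

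Clec4d and Clec4e were read most in neutrophil-like cells and next in monocyte-like and C1q-low macrophage-like cells. In control IgG, Clec4e stood at 3842 CPM in neutrophil-like cells (median 16 UMIs a cell), 1527 in monocyte-like, 1168 in C1q-low and 408 in C1q macrophage-like cells. The conventional dendritic classes lay between the last 2 of these, with 731 CPM (678 to 788) in cDC2-like and 611 (549 to 679) in cDC1-like cells, while pDC-like cells had 65.4 (35.8 to 109.7). Clec4d was also highest in neutrophil-like cells, but the other classes had another order: 1789 CPM in neutrophil-like cells, 746 in C1q-low, 622 in monocyte-like, 347 (311 to 386) in cDC2-like and 314 (301 to 328) in C1q macrophage-like cells, and the last 2 intervals overlapped. The cDC1-like level of Clec4d, 206 CPM (170 to 247), lay below that of C1q macrophage-like cells, where for Clec4e it lay above. Across the 17 class-by-library points with at least 50 cells, the log2 levels of Clec4d and Clec4e had a Pearson r of 0.98, the highest among the 36 pairs of members. The points share libraries and depth, so the value is a description.

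**Figure D1:**
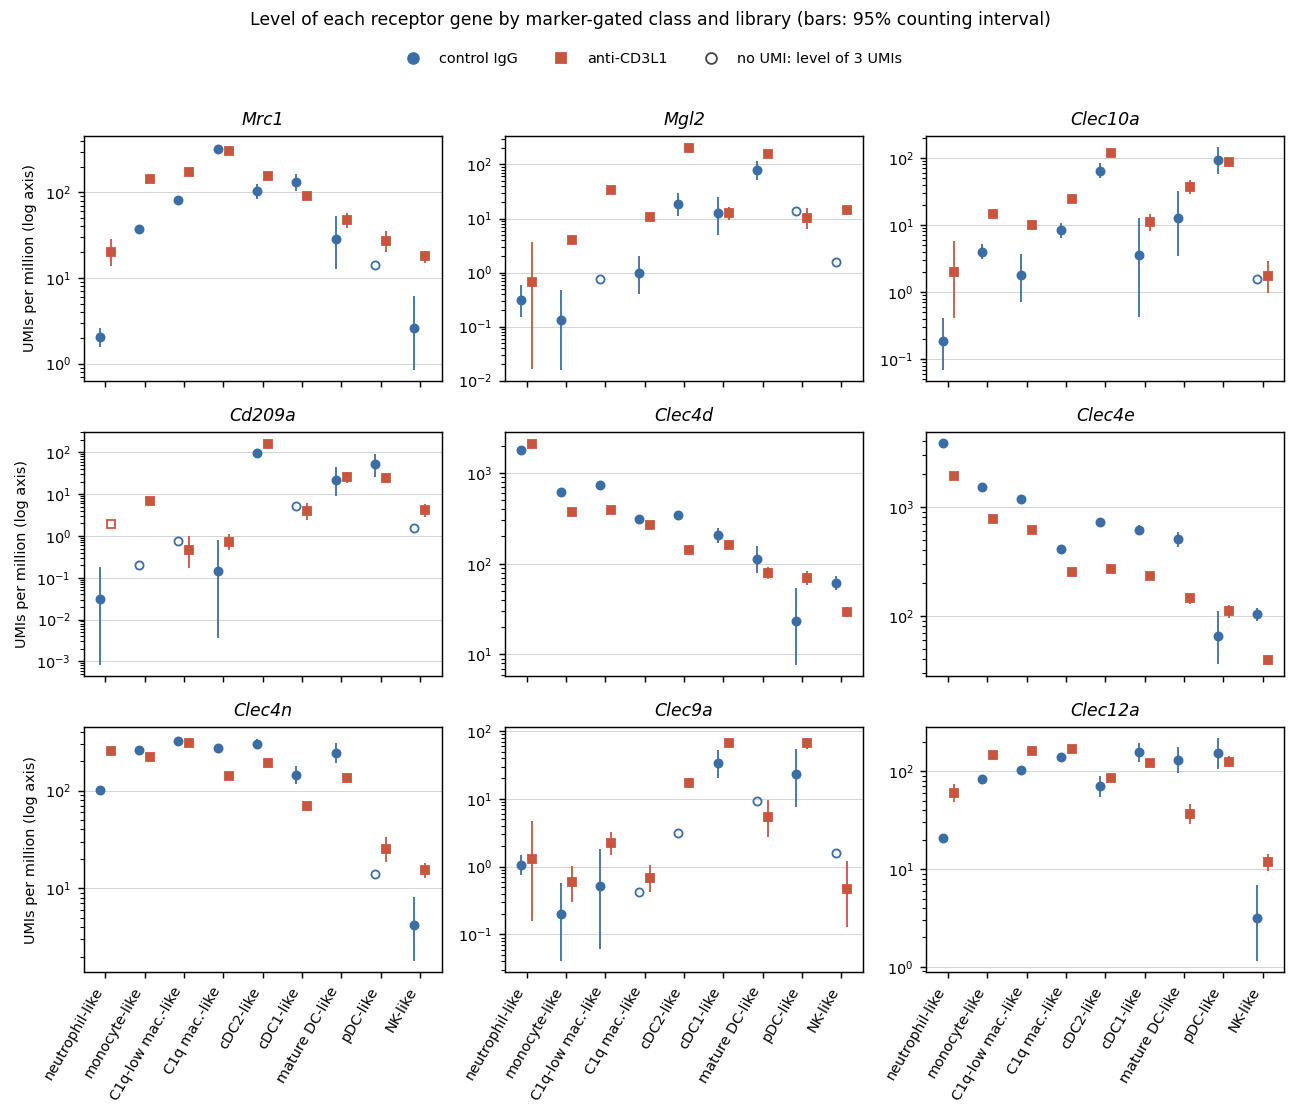
Level of each receptor gene (CPM, log axis) in 9 marker-gated classes, circles for control IgG and squares for anti-CD3L1, bars for 95% counting intervals and open symbols for the level of 3 UMIs where none was read. Clec4d and Clec4e are highest in neutrophil-like cells, Mrc1 in C1q macrophage-like cells and Cd209a in cDC2-like cells of both libraries.

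NK-like cells, which do not express these receptors as far as is known, gave the level that free RNA and mixed droplets can leave. They held 104 CPM of Clec4e in control IgG and 39.2 in anti-CD3L1, and 61.7 and 29.3 CPM of Clec4d. Barcodes of 10 to 100 UMIs, which hold mostly free RNA, had 1905 and 335 CPM of Clec4e. The free RNA therefore differed between the libraries in the same direction as the classes below. About 119 free UMIs per NK-like cell were estimated in control IgG and 162 in anti-CD3L1. The estimate used the median NK-like count of 7 myeloid genes (9 and 3 UMIs), where the means were 107 and 13.7. Subtracting it left the Clec4e log2 ratios of the 6 main classes between -1.42 and -0.64. It removed less Clec4e than NK-like cells held (1.28 and 0.40 UMIs per cell), so it does not bound the part of free RNA and mixed droplets.

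Clec4e was lower in the anti-CD3L1 library in 6 of 6 main classes. In neutrophil-like cells it was 3842 CPM with control IgG and 1915 with anti-CD3L1 (2.01-fold lower, log2 interval -1.06 to -0.95). In monocyte-like cells it was 1527 and 774 (-0.98, -1.01 to -0.95) and in C1q-low macrophage-like cells 1168 and 608 (-0.94, -0.99 to -0.89). These ratios were alike on the CPM scale only: rescaled to each class's median gene, they were -1.66 in neutrophil-like, -1.24 in monocyte-like and -1.11 in C1q-low cells. C1q macrophage-like cells differed less (408 and 254 CPM, -0.68), and cDC1-like (611 and 233, -1.39) and cDC2-like cells (731 and 271, -1.43) differed more. The dendritic ratios were near those of NK-like (-1.40) and ILC-like cells (-1.48), where Clec4e was low. S100a8 and S100a9, neutrophil genes, moved with Clec4e: together they summed to 8684 CPM in monocyte-like cells of control IgG and 1188 in anti-CD3L1, and to 9742 and 214 CPM in C1q-low cells. In neutrophil-like cells they summed to 168397 and 78987 CPM. The 7 neutrophil markers there summed to 13690 and 10982 CPM and the 6 C1q macrophage markers to 37.4 and 224. Neutrophil-like cells of the 2 libraries thus differed in more than Clec4e, and 34.8% of all genes there were past 2-fold higher and 3.74% lower with anti-CD3L1. The bearing of these differences on Clec4e was not tested. Without the cells in which S100a8 and S100a9 passed 1% of UMIs, a limit chosen after seeing the data, the 5 classes other than neutrophil-like kept log2 ratios between -1.27 and -0.49.

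Clec4d did not share all of this. In neutrophil-like cells it was 1789 CPM with control IgG and 2082 with anti-CD3L1 (log2 ratio 0.22, 0.17 to 0.27), and this turned to -0.44 when the class was rescaled to its median gene, which stood 0.66 higher in anti-CD3L1 among the 10899 genes used. In monocyte-like (622 and 371, -0.75), C1q-low (746 and 392, -0.93) and cDC2-like cells (347 and 140.3, -1.31) it was lower with anti-CD3L1. C1q macrophage-like (314 and 268, -0.23) and cDC1-like cells (206 and 159.6, -0.37) differed little.

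The ratio of Clec4e to Clec4d UMIs in the same cells does not depend on scaling. In neutrophil-like cells it was 2.15 Clec4e UMIs per Clec4d UMI (2.13 to 2.17) with control IgG and 0.92 (0.87 to 0.97) with anti-CD3L1. Depth differed between these cells, but the ratio was 2.12 and 0.92 among cells of 2000 to under 4000 UMIs (1813 and 258 cells), 2.15 and 1.01 at 4000 to under 8000 (2558 and 41 cells) and 2.17 and 1.12 at 8000 or more (921 and 29 cells). At each of the 4 depths the intervals of the libraries were apart. In C1q-low macrophage-like cells the ratio was 1.57 and 1.55, with overlapping intervals, and in cDC2-like cells 2.11 and 1.93, again overlapping. Monocyte-like cells had 2.45 and 2.09, C1q macrophage-like 1.30 and 0.95 and cDC1-like 2.97 and 1.46. Barcodes of 10 to 100 UMIs differed in the same direction, with 2.20 (2.11 to 2.30) and 1.25 (1.16 to 1.35). The part of free RNA in the class ratios was not tested.

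**Figure D2:**
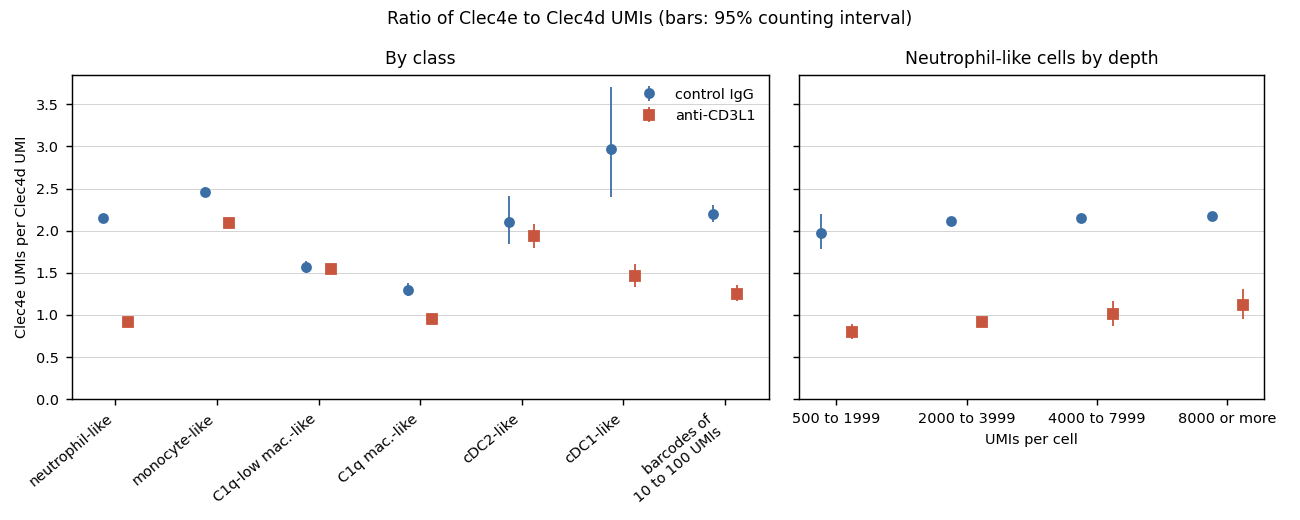
Clec4e UMIs per Clec4d UMI by class (left) and in neutrophil-like cells by UMIs per cell (right), circles for control IgG and squares for anti-CD3L1, bars for 95% counting intervals. The libraries are far apart in neutrophil-like cells at every depth and coincide in C1q-low macrophage-like cells.

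After thinning each cell to 1000 UMIs, so that depth is equal, 91.8% (91.0 to 92.5) of neutrophil-like cells of control IgG and 71.2% (67.1 to 75.1) of those of anti-CD3L1 had a Clec4e UMI. For Clec4d the shares were 78.8% (77.7 to 79.9) and 80.6% (76.9 to 84.0). In monocyte-like cells 66.6% and 44.3% had a Clec4e UMI. NK-like cells, with median depths of 11094 and 9088 UMIs before thinning, showed 9.68% and 2.04%. Thinning left out 88 and 24 neutrophil-like cells below 1000 UMIs, and without it the Clec4e shares were 99.1% and 84.9%.

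Clec4n, the Dectin-2 gene, was spread over monocytic and dendritic classes and had no class far above the rest. In control IgG it was 324 CPM in C1q-low macrophage-like cells (306 to 342) and 301 in cDC2-like (267 to 338), then 275 in C1q macrophage-like and 258 in monocyte-like cells, and 102 in neutrophil-like cells. In neutrophil-like cells it was 102 CPM with control IgG and 255 with anti-CD3L1 (log2 ratio 1.33, 1.17 to 1.48), or 0.67 and so under 2-fold when rescaled to the median gene. The share of thinned cells with a UMI was 8.62% (7.89 to 9.40) and 19.0% (15.7 to 22.7), against 1.29% and 0.96% of NK-like cells. In C1q macrophage-like cells it was 275 and 141 (-0.97, -1.04 to -0.89), while C1q-low cells had 324 and 305 (-0.08, -0.18 to 0.01). The cDC1-like value (145 and 68.8, -1.08) came from 82 UMIs of 37 control IgG cells and turned to 0.20 under a stricter gate.

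Mrc1 was read most in C1q macrophage-like cells, which hold 61.7% of its UMIs in control IgG and 53.6% in anti-CD3L1. Its level there was 324 CPM (311 to 338) and 308 (301 to 314), a log2 ratio of -0.07 (-0.14 to -0.01). After thinning, 19.8% (16.4 to 23.6) and 19.2% (17.7 to 20.6) of these cells had an Mrc1 UMI, against 0.645% and 1.20% of NK-like cells. Within this class, cells with a UMI of Folr2, a folate receptor gene of tissue-resident macrophages, had 446 and 431 CPM of Mrc1, and cells without one had 241 and 192. The C1q macrophage-like level of Mrc1 thus differed by far less between the libraries than between these groups of cells, which differ in depth as well (medians 15464 and 12789 UMIs in control IgG). Clec10a followed Mrc1 here, with 13.3 and 40.6 CPM in cells with a Folr2 UMI and 4.99 and 9.47 in those without, while Clec4e was lower in cells with one (377 and 207 CPM, against 430 and 299).

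The other monocytic classes carried more Mrc1 in the anti-CD3L1 library. Monocyte-like cells had 37.3 CPM with control IgG and 143 with anti-CD3L1 (567 and 2888 UMIs, log2 ratio 1.94, 1.81 to 2.07), and 2.74% (1.88 to 3.84) and 10.5% (9.32 to 11.8) of thinned cells had a UMI. C1q-low macrophage-like cells had 81.4 and 174 CPM (1.09, 0.92 to 1.27), with 5.94% and 12.3% of thinned cells. Markers of C1q macrophages moved with these values, since their 6-gene sum was 285 and 637 CPM in monocyte-like and 1137 and 3045 CPM in C1q-low cells. Without the cells of both classes that held any C1qa, C1qb or C1qc UMI, an alternative chosen after seeing the data, the log2 ratio was 1.88 in monocyte-like cells (993 and 1346 cells) and 0.73 in C1q-low cells (242 and 349 cells). Free RNA also held more Mrc1 (37.1 and 125 CPM in barcodes of 10 to 100 UMIs). Subtracting the estimate from NK-like medians left 1.94 and 1.09, but so few UMIs were removed that the ratios could hardly move. The part of free RNA in these values was not tested.

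The dendritic classes held Mrc1 at 104 and 155 CPM (cDC2-like) and 131 and 91.9 CPM (cDC1-like). In control IgG the cDC1-like interval (103 to 165) overlapped that of cDC2-like cells (84.8 to 127), and in ILC-like cells all 44 Mrc1 UMIs came from 1 cell. Neutrophil-like cells had 2.02 and 20.4 CPM. There 31 UMIs made up the anti-CD3L1 value and 16 of them were in 1 cell, so its log2 ratio of 3.33 rested on few cells.

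The galactose-type lectins and Cd209a had their highest CPM in dendritic classes. Most Cd209a UMIs were in cDC2-like cells, which hold 82.6% of them in control IgG and 76.0% in anti-CD3L1. Its level there was 99.0 CPM (80.1 to 121) and 161 (152 to 170), a log2 ratio of 0.70 (0.40 to 1.02). The 95 UMIs of control IgG were in 14 of 63 cells, and those of anti-CD3L1 in 231 of 686. In pDC-like cells Cd209a was 51.4 CPM (25.7 to 92.0) and 24.6, and the control IgG interval overlapped that of cDC2-like cells. Mature DC-like cells had 21.9 and 25.2 CPM. Clec10a was 64.6 and 117 CPM in cDC2-like cells (0.86, 0.49 to 1.25) and 93.4 (57.1 to 144) and 86.2 (73.7 to 100.3) in pDC-like cells, the plasmacytoid type, of which control IgG had 17. The 62 Clec10a UMIs in cDC2-like cells of control IgG were in 15 of 63 cells, and 1 cell held 25 of them. Under the stricter gate, the cDC2-like ratios were 0.16 for Cd209a and 0.38 for Clec10a.

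In cDC2-like cells Mgl2 differed more between the libraries than its neighbour Clec10a, and in cDC1-like cells less (log2 ratios 0.02 and 1.64, from few UMIs). In cDC2-like cells it was 18.8 CPM (11.1 to 29.6) with control IgG and 199 (189 to 209) with anti-CD3L1, a log2 ratio of 3.41 (2.74 to 4.17), or 10.6-fold. The control IgG value was 18 UMIs in 4 of 63 cells and the anti-CD3L1 value 1543 UMIs in 139 of 686 cells, and after thinning 1.59% (0.0402 to 8.53) and 8.31% (6.35 to 10.6) of cells had a UMI, with overlapping intervals. Mature DC-like cells, activated dendritic cells, had 78.3 and 155 CPM, from 22 and 169 cells. Within cDC2-like cells of anti-CD3L1, 10 cells held 32.1% of the Mgl2 UMIs, against 19.9% for Cd209a and 16.3% for Clec10a.

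Macrophage and monocyte classes carried traces of these genes in control IgG and more in anti-CD3L1. Mgl2 had 0 UMIs in C1q-low macrophage-like cells of control IgG and 437 in those of anti-CD3L1 (34.0 CPM), and 91 of the 437 were in 1 cell. This was 44.4-fold the class's level of 3 control IgG UMIs (lower log2 limit 5.17). In C1q macrophage-like cells Mgl2 was 0.992 and 10.8 CPM (log2 ratio 3.44, 2.38 to 4.77) and Clec10a 8.36 and 24.5 (1.55, 1.17 to 1.96). Cd209a had 0 and 137 UMIs in monocyte-like cells (6.76 CPM), 34.3-fold the class's level of 3 control IgG UMIs (lower log2 limit 4.78). The 137 UMIs were in 46 of 2481 cells, and 10 cells held 58.4% of them, so the value rested on few cells. NK-like cells bounded how these low levels can be read, since in anti-CD3L1 they held 14.1 CPM of Mgl2 (61 of the 121 UMIs in 1 cell), 1.75 of Clec10a and 4.09 of Cd209a. The Mgl2 CPM of C1q macrophage-like cells was lower than this NK-like value, but the intervals overlapped and 1 cell weighed heavily, so no order is read. The share of anti-CD3L1 cells with an Mgl2 UMI had the other order, 4.01% of C1q macrophage-like and 1.32% of NK-like cells without thinning. After thinning it was 0.925% and 0.480%, with overlapping intervals. The Clec10a level of C1q macrophage-like cells was above that of NK-like cells. Barcodes of 10 to 100 UMIs held 25.3 CPM of Mgl2 and 23.0 of Clec10a in anti-CD3L1. These are levels within free RNA and not the amount it adds to a cell, and its part in the class values was not tested.

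Clec9a, read in cross-presenting dendritic cells, was 33.7 CPM (20.3 to 52.6) in cDC1-like cells of control IgG and 66.8 (59.5 to 74.7) in those of anti-CD3L1, a log2 ratio of 0.99 (0.32 to 1.74). The control IgG value was 19 UMIs in 7 of 37 cells. These were 29.7% of the Clec9a UMIs of control IgG, where the many neutrophil-like cells held 53.1% (34 UMIs, 1.07 CPM). In pDC-like cells Clec9a was 23.4 CPM (7.58 to 54.5) and 65.7 (54.8 to 78.1), and in neither library did the order of the cDC1-like and pDC-like levels exceed counting error. cDC2-like cells had 0 UMIs and 134 (17.3 CPM), 5.53-fold the level of 3 control IgG UMIs (lower log2 limit 2.15). NK-like cells had 0 and 4 UMIs.

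Clec12a, the inhibitory receptor gene, was read in all main classes. In control IgG it lay between 69.8 and 156 CPM in the 5 main classes other than neutrophil-like, and in anti-CD3L1 between 86.1 and 167. Monocyte-like cells had 82.3 and 145 CPM (log2 ratio 0.82, 0.72 to 0.91), C1q-low 102 and 163 (0.68), C1q macrophage-like 140.3 and 167 (0.25, 0.15 to 0.35) and cDC1-like 156 and 121 (-0.37, -0.70 to -0.03). Neutrophil-like cells had 20.7 and 59.7 CPM (1.53, 1.20 to 1.85, and 0.87 rescaled to the median gene), and NK-like cells 3.14 and 11.8 CPM. After thinning, 1.96% and 4.11% of neutrophil-like and 0% and 0.720% of NK-like cells had a Clec12a UMI. Barcodes of 10 to 100 UMIs had 55.6 and 131 CPM, a level within free RNA and not the amount it adds to a cell.

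**Figure D3:**
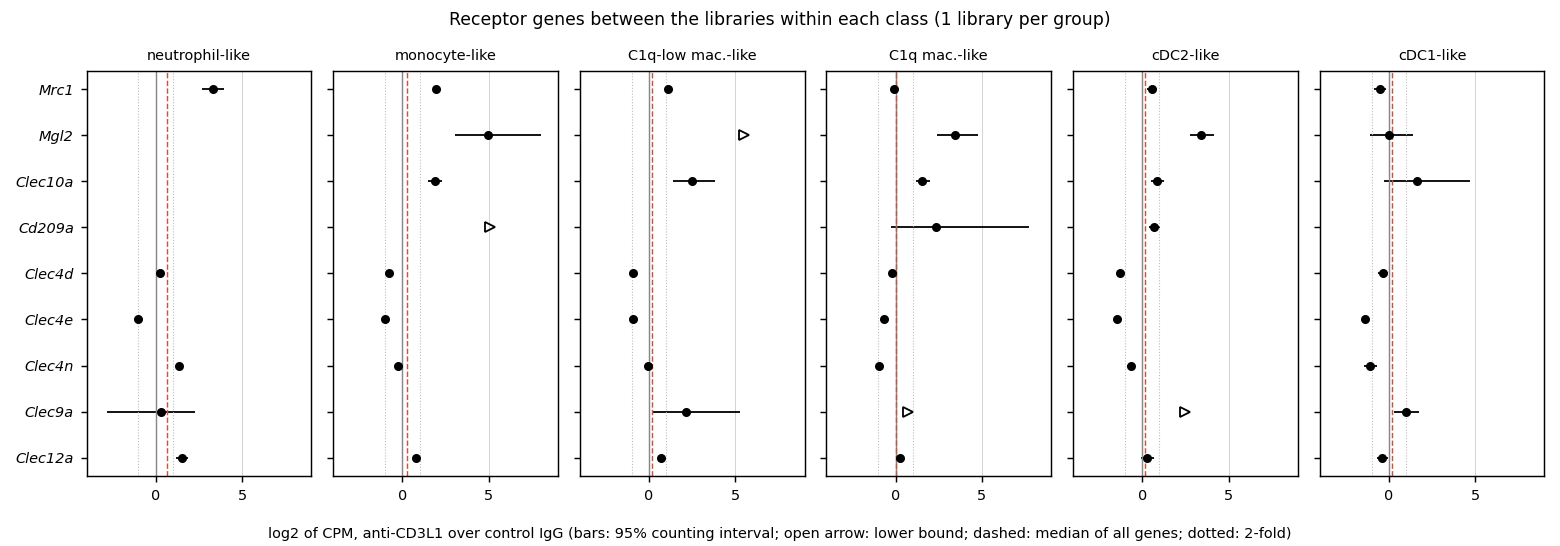
Log2 ratio of each receptor gene's CPM, anti-CD3L1 over control IgG, in 6 classes, with 95% counting intervals, open arrows for lower bounds where control IgG had no UMI, dashed lines for the median of all genes and dotted lines for 2-fold. Clec4e lies left of 0 in every class, and Mrc1 lies at 0 in C1q macrophage-like cells and right of 1 in monocyte-like cells.

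Counts of members past the 2-fold line are given with the share of all genes past it, as a description. Members with few control IgG UMIs passed the filter of at least 20 UMIs over both libraries only through anti-CD3L1 and could only be counted as higher, so nothing is read from the higher counts. In monocyte-like cells 4 of 8 members that passed the filter were higher with anti-CD3L1 (Mrc1 and Clec10a, and, from 2 and 0 control IgG UMIs, Mgl2 and Cd209a), where 11.5% of all genes were, and 0 were lower (2.89% of genes). In C1q-low cells 4 of 8 were higher (Mrc1, and, from 0, 7 and 2 control IgG UMIs, Mgl2, Clec10a and Clec9a, against 11.0% of genes) and 0 lower (5.13%). In C1q macrophage-like cells 3 of 9 were higher (Mgl2, Clec10a and Cd209a, 6.36%) and 0 lower (4.68%), where Mgl2 had 7 and Cd209a 1 UMI in control IgG.

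Among cDC2-like cells, 2 of 9 were higher (Mgl2 and Clec9a, from 18 and 0 control IgG UMIs, 11.6% of genes) and 2 lower (Clec4d and Clec4e, 3.74%). Among cDC1-like cells, 1 of 8 was higher (Clec10a, from 2 and 50 UMIs, 11.7%) and 2 lower (Clec4e and Clec4n, 5.27%). In neutrophil-like cells 3 of 6 were higher (Mrc1, Clec4n and Clec12a), but 34.8% of all genes were too, and Clec4e alone was lower (3.74%), at the line itself. In NK-like cells 5 of 7 were higher (9.21% of genes) and 2 lower (2.65%). The higher ones were Mrc1, Mgl2, Cd209a, Clec4n and Clec12a, from 5, 0, 0, 8 and 6 control IgG UMIs. The lower ones were Clec4d and Clec4e, so these 2 genes were also lower in the cells that served as background. In ILC-like (innate lymphoid) cells 0 of 5 were higher (10.5%) and 3 lower (3.28%), namely Mrc1, Clec4d and Clec4e, of whose control IgG UMIs 1 cell held 44 of 44, 39 of 60 and 45 of 84.

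Over all cells of a library, where the classes mix, 6 of 9 members were over 2-fold higher with anti-CD3L1 (33.6% of genes) and Clec4d and Clec4e over 2-fold lower (6.65%). Clec4e was 2375 and 416 CPM and Clec4d 1100 and 282 CPM. Neutrophil-like cells held 76.1% of the Clec4e UMIs in control IgG and 7.16% in anti-CD3L1. Weighting the control IgG class levels by the share of UMIs that each class had in anti-CD3L1 gave 849 CPM of Clec4e and 426 of Clec4d. For Clec4e the log2 step from control IgG to this weighted value was -1.48, and from there to anti-CD3L1 it was -1.03. Such steps depend on which library's class levels are weighted. The reverse order was not computed, so they do not measure how much the class mix contributed. For Mrc1 the values were 55.1 CPM, 135 with the class mix of anti-CD3L1, and 169 in anti-CD3L1. Clec12a was similar (61.0, 100.2 and 127). Mgl2 had 1.07, 4.06 and 31.6 CPM, and in this order its log2 step to the weighted value was 1.93 and the step from it 2.96. Clec4n hardly differed over all cells (170 and 163 CPM), although its class mix value was 224.

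**Figure D4:**
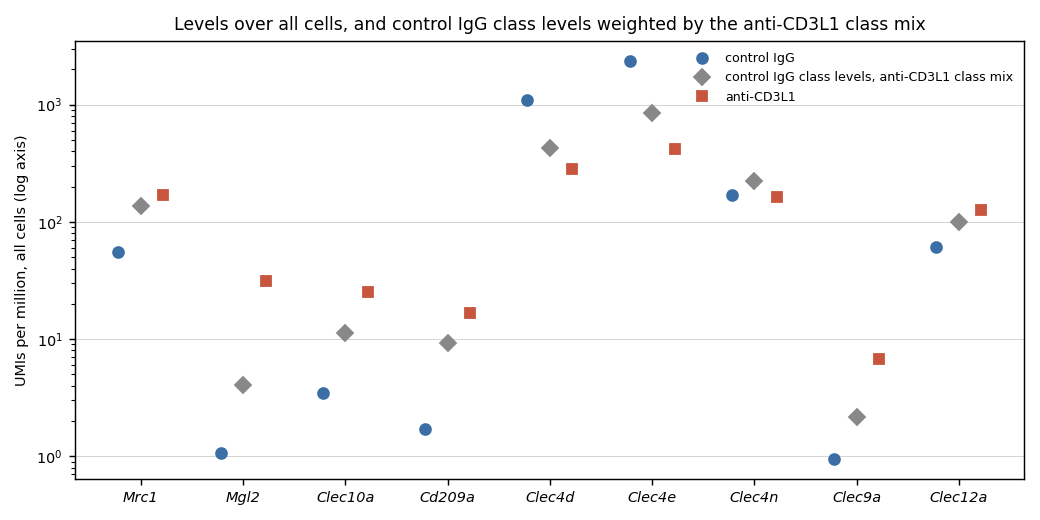
CPM over all cells (log axis) of each receptor gene in control IgG (circles), in anti-CD3L1 (squares), and for the control IgG class levels weighted by the class mix of anti-CD3L1 (diamonds). For Mrc1 the diamond lies close to the square, for Mgl2 nearer the circle. The diamonds weight control IgG levels only, and the reverse order was not computed.

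Of 12 genes of the signalling path behind these receptors, 0 were past 2-fold in C1q macrophage-like, C1q-low or monocyte-like cells, where 6.36%, 11.0% and 11.5% of all genes were higher and 4.68%, 5.13% and 2.89% lower. Their median log2 ratios were -0.08, -0.05 and 0.05, and those of all genes 0.01, 0.17 and 0.26. In monocyte-like cells Fcer1g was 2322 and 2230 CPM, Syk 639 and 613 and Tyrobp, another adaptor, 2054 and 2171. In neutrophil-like cells Plcg2 (1.51) and Inpp5d (1.11) were past 2-fold higher, 2 of 12 where 34.8% of all genes were, and Fcer1g was 2880 and 2290 CPM. In cDC2-like cells Card9, the adaptor downstream of Syk, was past 2-fold lower, from 10 and 37 UMIs.

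Of 10 cytokine and enzyme genes that Syk and Card9 can drive, 9 were measured in monocyte-like cells. There 1 was past 2-fold higher (11.5% of all genes) and 2 lower (2.89%). Ptgs2, encoding cyclooxygenase 2, was past 2-fold lower in 5 of the 6 main classes and Il1b in 3, where 2.89% to 5.27% of all genes were lower by class. In NK-like cells, which served as background, Il1b and Csf2 were also lower (2.65% of genes) and Cxcl1 higher (9.21%). In ILC-like cells Il1b was lower (3.28%) and Il10 and Cxcl1 higher (10.5%). The part of free RNA in the values of this list was not tested. In monocyte-like cells Il1b was 5124 and 2339 CPM (-1.13) and Ptgs2 369 and 159 (-1.21), while Tnf was 280 and 583 (1.06). In C1q-low cells 3 of 10 were higher (Tnf, Il10 and Il12b, 11.0% of all genes) and 2 lower (Il6 and Ptgs2, 5.13%). Tnf was 267 and 961 CPM there (1.85) and Ptgs2 789 and 269 (-1.55). Both classes had lower Clec4e and Ptgs2 and higher Tnf with anti-CD3L1, and a link between Clec4e and the genes of this list was not tested. In neutrophil-like cells 0 of 7 were higher (34.8%) and 3 lower (Il23a, Cxcl2 and Ptgs2, 3.74%). C1q macrophage-like cells had 1 of 10 higher (Csf2, 6.36%) and 2 lower (Il12b and Ptgs2, 4.68%). The counts were 1 and 2 of 8 in cDC1-like (11.7% and 5.27%) and 1 and 1 of 9 in cDC2-like cells (11.6% and 3.74%). The list's median log2 ratio was -0.73 in neutrophil-like and -0.22 in monocyte-like cells, against 0.67 and 0.26 for all genes.

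Of 25 other C-type lectin receptor genes in the files, 13 were measured in monocyte-like cells, with Cd209d past 2-fold higher and Clec5a, an activating receptor gene, lower (67.6 and 32.8 CPM, -1.04). In C1q macrophage-like cells 6 of 18 were higher (Clec1a, Cd209d, Cd209f, Cd209g, Ly75 and Mrc2) and 1 lower (Cd207). In cDC2-like cells Clec5a (-1.39), Clec4a1 (-1.21), Clec4a2, Clec2d and Cd302 were lower and Clec1a, Cd209c, Cd209e and Ly75 higher. In cDC1-like cells 3 of 13 were higher and 5 lower, in C1q-low cells 5 and 2 of 13, and in neutrophil-like cells 5 and 1 of 14. The shares of all genes were 11.5% higher and 2.89% lower in monocyte-like, 6.36% and 4.68% in C1q macrophage-like, 11.6% and 3.74% in cDC2-like, 11.7% and 5.27% in cDC1-like, 11.0% and 5.13% in C1q-low, and 34.8% and 3.74% in neutrophil-like cells. The median log2 ratio of the list was -0.40 in monocyte-like and 0.45 in C1q macrophage-like cells, where all genes had 0.26 and 0.01.

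Among 12059 genes, the pattern most like that of Mrc1 over the 17 class-by-library points was that of Itga9, an integrin gene (r = 0.96). For Clec4d it was Rnf149 (0.99), for Clec4e Bst1 (0.98), with Clec4d among the 3 most alike, and for Clec12a 5031439G07Rik (0.96), followed by Cd68 (0.96). Cd209a was most like Cd209d (0.90), Clec10a like Gprc5c (0.94), Clec4n like Cstb (0.95), Mgl2 like the chemokine gene Ccl17 (0.87) and Clec9a like Havcr1 (0.82). Between members, Clec10a and Cd209a had r = 0.83 and Mrc1 and Clec12a 0.81, whereas Mrc1 and Clec4e had -0.01.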

How the data were processed

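Droplet single-cell RNA-seq (10x Genomics Chromium) measured 2 libraries of CD45-sorted mouse cells. The deposited files hold raw UMI counts per gene and barcode, made by the authors with Cell Ranger 7.1.0 on GRCm39, with Seurat 5.1.0 downstream, per the labels. A deposited table of the authors' own gene comparisons (fold changes and p-values) was not used. Cells had at least 500 UMIs, over 200 and under 6000 genes and under 5% mitochondrial UMIs. The depth was 74850604 UMIs in the control IgG file and 108246719 in the anti-CD3L1 file, over 1084690 and 1548857 barcodes. Each cell went to the class, of 13, with the highest scaled mean of its markers (77 of 78 listed had a row), if above 0 and with at least 3 markers read; 671 and 1464 cells went to none, and 461 of 5539 and 70 of 535 neutrophil-like cells lay within 0.5 of the next class or of 0. Classes with at least 30 cells in each library were compared, as counts were summed and given as CPM with exact Poisson or binomial 95% intervals. No test was made, with 1 library per group. The rules named the receptor genes, the 3 gene lists and the 3 genes most like each member. Doublets were kept, with no caller run; an alternative left out the 5% of cells with the most UMIs. Members and lists were chosen with earlier results of these data known. The code was tested on simulated data (Python 3.11.15, numpy 2.4.6, scipy 1.17.1, pandas 2.3.3).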

Additional observations from a re-analysis of the deposited data

Results flagged for a closer look

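Clec4n differed in opposite directions between the libraries in different classes, past 2-fold in each on the CPM scale. Its log2 ratio, anti-CD3L1 over control IgG, was 1.33 in neutrophil-like cells (3223 and 389 UMIs) and -1.08 in cDC1-like cells (82 and 312 UMIs). Rescaled to the median gene of the class, the neutrophil-like value was 0.67, under 2-fold. The difference between the classes was not tested, since each group had 1 library. In cells of 2000 to under 4000 UMIs, neutrophil-like Clec4n was 152 and 277 CPM. The cDC1-like value turned to 0.20 under a stricter gate, which left 27 control IgG cells.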

How the results depend on the processing

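Of 475 log2 ratios recomputed under 10 alternatives, 464 kept their sign and 11 turned; of ratios past 2-fold, Clec4n in cDC1-like cells alone turned (0.20 under the stricter gate). Clec4e kept its sign in the 6 main classes throughout. Counts of members past 2-fold also moved. The shares of all genes past 2-fold under each alternative are not given here, so nothing is read from the moved counts about the members. In neutrophil-like cells the lower count was 0, not 1, under the stricter gate, free RNA subtraction, without the 5% of cells with the most UMIs and with the mean of CPM over cells, and the higher count was 1, not 3, under median-ratio scaling. Median-ratio scaling gave 2 lower members in each of C1q-low and monocyte-like cells (0 otherwise), and the stricter gate gave 1 in C1q-low. C1q macrophage-like cells had 1 lower member, not 0, without the top 5% and with mean CPM. In cDC1-like cells the higher count was 2 with under 10% mitochondrial UMIs and with mean CPM, and the lower count was 1 under these and the stricter gate and 0 without cells over 1% S100a8 and S100a9, which left 1 in cDC2-like cells. Leaving out cells with a C1q UMI left 2 higher members, not 4, in C1q-low cells. The last pair of alternatives was chosen after seeing the data. The class with the most Clec9a became neutrophil-like in control IgG under the stricter gate (0.953 CPM, as 27 cDC1-like cells were too few) and pDC-like in anti-CD3L1 without the top 5% (70.4 CPM) and with mean CPM (71.0 CPM); for Clec12a in control IgG it became C1q macrophage-like under the stricter gate (141.5 CPM).

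Members whose thinned shares had separate intervals numbered 1 higher and 2 lower in C1q macrophage-like and 2 higher and 2 lower in monocyte-like cells. The higher counts were 2 and 4 when thinned to 2000 UMIs and 2 and 5 unthinned. In cDC2-like cells 0 were higher and 1 lower, against 1 and 3 at 2000 UMIs and 2 and 3 unthinned. In neutrophil-like cells 2 were higher and 1 lower, and unthinned 2 lower. The intervals are over cells of 1 library per group, and the share of all genes with separate intervals was not computed. Nothing is therefore read from these counts about the members or the treatment. The causes were not tested. No paired analysis was possible because each group had 1 library. Cell number limits the small classes of control IgG (17 to 63 dendritic cells by class), where single cells set the level of Mgl2, Clec10a, Clec9a and Cd209a.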
